A study of Mus musculus with 5 samples.

Results

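GIMAP proteins, the GTPases of immunity-associated proteins, are a family of guanine nucleotide-binding proteins made mainly by lymphocytes. They share a GTP-binding domain of the AIG1 type, many are anchored to intracellular membranes, and in mice and rats several are known for keeping peripheral lymphocytes alive. Their genes lie side by side in a single cluster. The members described here are the 8 mouse genes Gimap1, Gimap3, Gimap4, Gimap5, Gimap6, Gimap7, Gimap8 and Gimap9, found by matching their NCBI gene numbers among the 27179 gene identifiers of the count table. All 8 were counted in every library.

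The study set group 3 innate lymphoid cells (ILC3), lymphocytes that carry no rearranged antigen receptor, against CD4 T cells, under a title about interleukin-2 and regulatory T cells of the intestine. The 3 ILC3 libraries came from cells sorted for CD45, CD127 and a green fluorescent reporter of their lineage and against CD3, and the 2 CD4 T libraries from cells sorted for CD45, CD3 and CD4. Both groups are labelled C57BL/6 and wild type, with 3 mice in all; the reporter in the ILC3 sort is named without its allele, and no age, treatment or tissue is given with the libraries. Which mouse gave which library is not stated, so a p-value here reflects how far these libraries spread, and some of that spread may be technical.

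The libraries held between 15123715 and 25956023 counts. As a check of the labels, 12 of 14 ILC3 marker genes were called higher in ILC3, beside 6.46% of all tested genes. With ILC3 replicate 1, 2 or 3 left out, 8 of the 14 were called higher. Beside them stood 270 of 12374, 269 of 12392 and 323 of 12430 tested genes. Tnfsf11, which encodes the cytokine RANKL, was 942, 834 and 957 CPM there against 46.1 and 56.5 CPM in the CD4 T libraries, where CPM are counts per 1000000 counts after TMM scaling. The CD4 T libraries also held transcripts known from other cells. Cd4 was 141.8 and 89.9 CPM there, beside 245 and 189 CPM of Cd8a, the CD8 coreceptor, and 744 and 813 CPM of Siglech, which marks plasmacytoid dendritic cells. Markers of plasmacytoid dendritic cells summed to 187, 228 and 186 CPM in ILC3 against 3044 and 2598 CPM in CD4 T, and those of myeloid cells to 136, 162 and 159 CPM against 1966 and 2500 CPM. CD4 T is used here as the label of these libraries. Plasma cell markers, led by the antibody joining chain gene Jchain, summed to 18828, 101577 and 83265 CPM in ILC3 and 35268 and 21797 CPM in CD4 T. In sorted populations sequenced in bulk, fewer cells of a type and less RNA per cell cannot be told apart.

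The cluster spans 123666 bases of chromosome 6 in the mouse build GRCm38, which is mm10. In order of position it runs Gimap8 (48647186 to 48660875), Gimap9 (48676121 to 48679116), Gimap4 (48684578 to 48692062), Gimap6 (48701583 to 48708244), Gimap7 (48718621 to 48724636), Gimap1 (48739047 to 48743795), Gimap5 (48746197 to 48754200) and Gimap3 (48764464 to 48770851). Gimap6 and Gimap3 are on the minus strand and the other 6 on the plus strand. GENCODE M21 annotates Gm28053, a coding gene over Gimap7, Gimap1 and Gimap5 (48718607 to 48752644), and the antisense gene Gimap1os over Gimap1 (48738346 to 48741444). Neither had a row of its own, and the strand setting of the counting is not given, so their reads cannot be told apart from those of the members they overlap.

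One part of the GTP-binding domain is the P-loop, or G1 motif, which holds the phosphates of GTP. A search of the translated coding sequence for the consensus of this loop found it once in 7 members and 3 times in Gimap8, the member built of several GTPase domains. The 24 coding bases of each are shown, and it is the number of loops that sets Gimap8 apart. The bases were read from GENCODE M21 transcripts, and each stretch lies in 1 exon. The capitals mark the last 9 bases, which end the loop with its glycine, lysine and serine codons. The search also allowed threonine in the last place.
Gimap8, loop 1 (chr6:48650256-48650279, plus strand, exon 2): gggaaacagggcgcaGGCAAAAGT
Gimap8, loop 2 (chr6:48656119-48656142, plus strand, exon 4): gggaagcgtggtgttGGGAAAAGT
Gimap8, loop 3 (chr6:48658746-48658769, plus strand, exon 5): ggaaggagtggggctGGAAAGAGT
Gimap9 (chr6:48677523-48677546, plus strand, exon 2): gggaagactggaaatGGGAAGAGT
Gimap4 (chr6:48690421-48690444, plus strand, exon 3): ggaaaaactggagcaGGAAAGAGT
Gimap6 (chr6:48702750-48702773, minus strand, exon 3): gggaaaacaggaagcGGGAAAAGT
Gimap7 (chr6:48723524-48723547, plus strand, exon 2): gggaaaacaggaagtGGAAAGAGC
Gimap1 (chr6:48742552-48742575, plus strand, exon 3): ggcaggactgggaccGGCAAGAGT
Gimap5 (chr6:48752594-48752617, plus strand, exon 3): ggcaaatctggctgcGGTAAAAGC
Gimap3 (chr6:48765887-48765910, minus strand, exon 5): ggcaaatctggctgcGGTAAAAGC

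Gimap5 and Gimap3 have the same 24 bases, and their coding sequences were 90.7% identical over 895 aligned bases. The other pairs among the 7 members with 1 loop were at most 68.8% identical, with a median of 62.1% over all 21 pairs. Of all windows of 50 bases in the Gimap5 transcript, 9.98% also occurred in a Gimap3 transcript, and 9.06% of those of Gimap3 in Gimap5. No other member shared such a window with another member. Counts of Gimap3 and Gimap5 are therefore uncertain to the extent that reads of the shared stretches were split, dropped or doubled.

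GIMAP transcripts were counted 182 times or more in every ILC3 and CD4 T library, and no member passed the test between the groups. Summed over the 8 genes, the family reached 1366, 1424 and 1269 CPM in ILC3 against 625 and 1863 CPM in CD4 T. The ILC3 libraries lay close together, and the CD4 T libraries lay on either side of them. Of the 8 members, 0 were called higher and 0 lower in ILC3 (edgeR quasi-likelihood test, Benjamini-Hochberg adjusted over 12747 genes), where 6.46% of all tested genes were called higher and 7.21% lower, 13.7% in all. At an unadjusted p under 0.05 there was 1 member, Gimap8, where 33.4% of all tested genes passed. The DESeq2 Wald test also called 0 members, against 14.5% of genes higher and 14.6% lower, and limma-voom called 0, against 10.3% higher and 11% lower. The log2 ratio (log2 fold change of ILC3 over CD4 T) had a median of 0.12 over the members and -0.10 over all tested genes, with 5 members above 0 and 3 below. Scaled by library size alone, all 8 were below 0, where the median of all tested genes was -0.59.

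**Figure D1:**
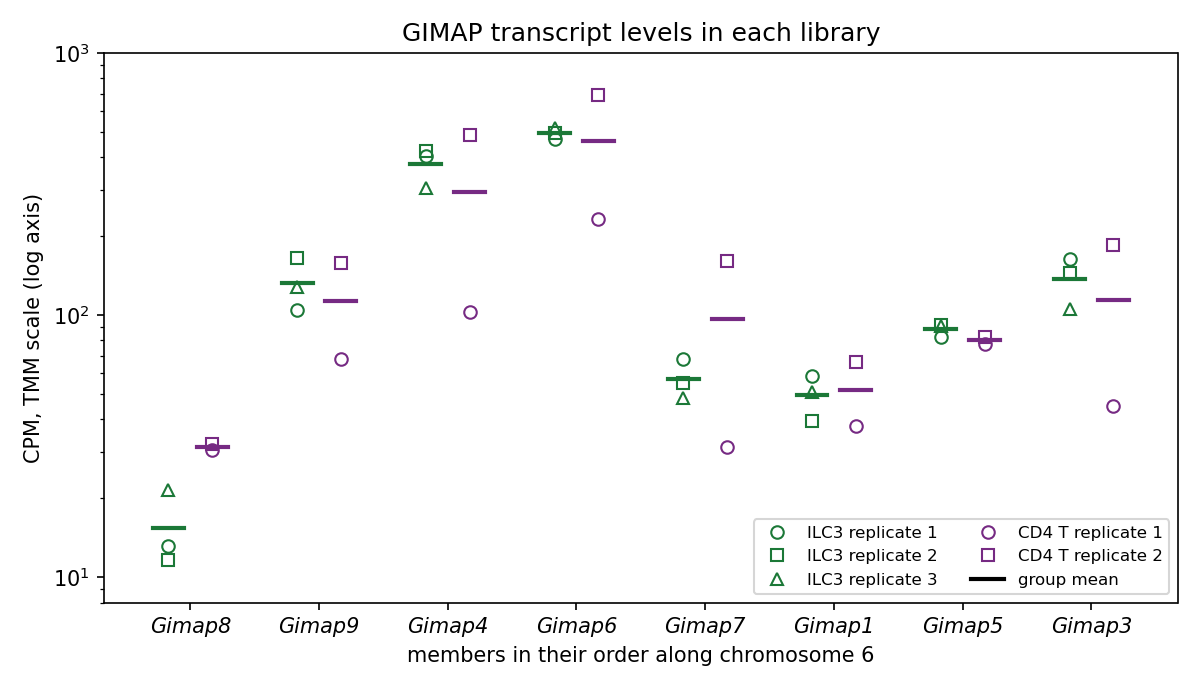
TMM-scaled CPM on a log axis for each GIMAP member, with one symbol per library, ILC3 left of CD4 T, and a bar at each group's mean. For 5 members all 3 ILC3 libraries lie between the CD4 T libraries, and only Gimap8 has groups that do not overlap.

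Gimap4 and Gimap6 carried most of the family's counts. Gimap6, whose protein binds the autophagy adaptor GABARAPL2, was 469.9, 495 and 519.5 CPM in ILC3 against 232 and 689.8 CPM in CD4 T. All ILC3 values lay between those of the CD4 T libraries. The log2 ratio was 0.10 (SE 0.466, adjusted p = 0.905 in edgeR), and its 95% interval of -1.01 to 1.21 covers folds of ILC3 over CD4 T from 0.497 to 2.32. Leaving out CD4 T replicate 2 gave 1.10 (adjusted p = 0.0276 in edgeR) and leaving out CD4 T replicate 1 gave -0.47 (adjusted p = 0.245 in edgeR).

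Gimap4, whose product is reported to speed the death of T cells once apoptosis is set off, was 405, 421 and 305 CPM in ILC3 against 102 and 488 CPM in CD4 T. Again every ILC3 library stood between the CD4 T libraries. The log2 ratio was 0.35 (SE 0.614, 95% interval -1.12 to 1.82, adjusted p = 0.741 in edgeR). Against CD4 T replicate 1 alone it was 1.89 (adjusted p = 0.0173 in edgeR), and against CD4 T replicate 2 alone it was -0.37 (adjusted p = 0.477 in edgeR).

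Gimap5 is the best known member, since its loss in mice and rats depletes peripheral T cells. It was 82.3, 91.6 and 90.8 CPM in ILC3 against 77.4 and 82.6 CPM in CD4 T, so the groups overlapped within a narrow range. Its log2 ratio was 0.14 (SE 0.254, adjusted p = 0.75 in edgeR). The 95% interval from -0.47 to 0.75, folds of 0.724 to 1.68, was the narrowest of the family. Without CD4 T replicate 1 the value was 0.10 and without CD4 T replicate 2 it was 0.20.

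Gimap3, the close relative of Gimap5, had 164, 144 and 105 CPM in ILC3 against 44.9 and 184 CPM in CD4 T. The ILC3 libraries fell between the CD4 T libraries, which differed from each other 4.11-fold. The log2 ratio was 0.27 (SE 0.576, adjusted p = 0.791 in edgeR). Against CD4 T replicate 1 alone the value was 1.63 (adjusted p = 0.0369 in edgeR), and against CD4 T replicate 2 alone it was -0.41 (adjusted p = 0.499 in edgeR).

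Gimap8 was the one member whose groups did not overlap, which held for 55% of all tested genes. It was 13.1, 11.6 and 21.6 CPM in ILC3 against 30.6 and 32.3 CPM in CD4 T, the lowest CPM of the family in every library. Both CD4 T libraries were above the highest ILC3 library, and they differed from each other only 1.06-fold. The log2 ratio was -1.02 (SE 0.404, 95% interval -1.99 to -0.06, adjusted p = 0.132 in edgeR), which did not pass the test. Over the 13 alternatives its adjusted p ran from 0.0577 to 0.307 and its log2 value from -1.53 to -0.85.

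Gimap7, whose human protein forms dimers that hydrolyse GTP, was 67.9, 55.2 and 48.3 CPM in ILC3 against 31.3 and 161 CPM in CD4 T. The CD4 T libraries differed 5.15-fold here, the widest gap of the family, with all ILC3 libraries between them. The log2 ratio was -0.75 (SE 0.620, adjusted p = 0.445 in edgeR). Its sign turned with the CD4 T library kept, to 0.88 against CD4 T replicate 1 alone (adjusted p = 0.135 in edgeR) and -1.49 against CD4 T replicate 2 alone (adjusted p = 0.0481 in edgeR).

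Gimap1, which mouse T and B cells need to persist as mature cells, was 58.8, 39.5 and 50.9 CPM in ILC3 against 37.7 and 66.0 CPM in CD4 T, with a log2 ratio of -0.06 (SE 0.359, adjusted p = 0.93 in edgeR). Gimap9 was 105, 166 and 128 CPM in ILC3 against 67.8 and 158 CPM in CD4 T, with a log2 ratio of 0.23 (SE 0.425, adjusted p = 0.751 in edgeR). In both genes the groups overlapped. With CD4 T replicate 1 left out the log2 ratio of Gimap1 was -0.40 and that of Gimap9 -0.25. With CD4 T replicate 2 left out they were 0.41 and 0.98, and neither gene was called.

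**Figure D2:**
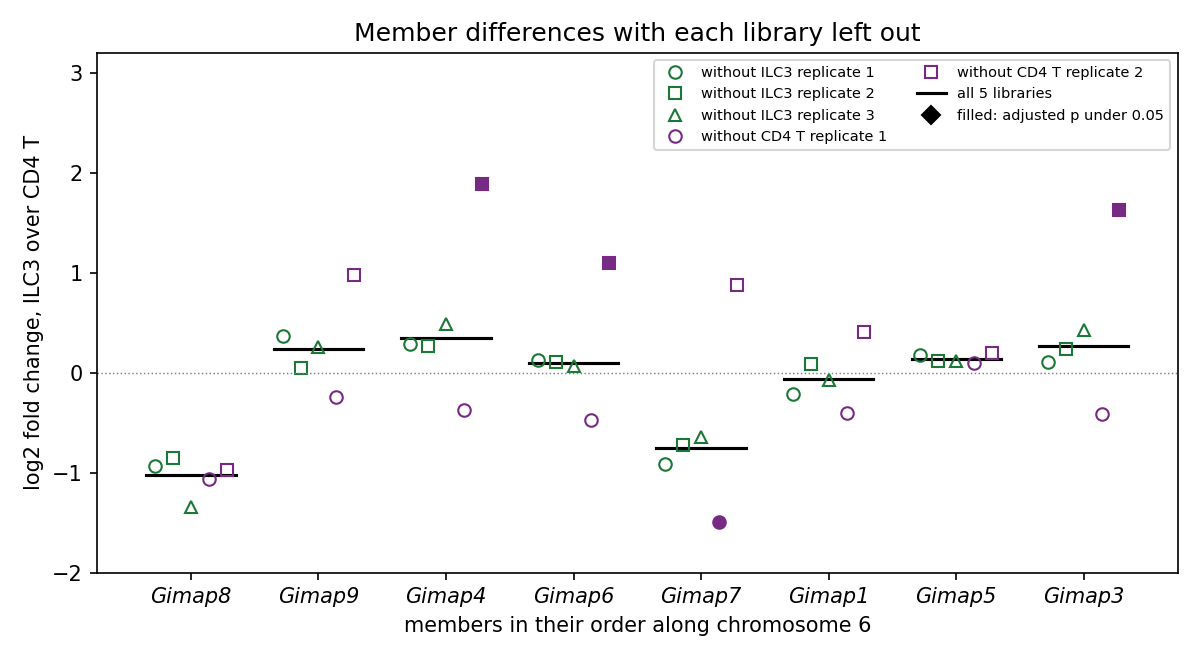
Log2 ratio of ILC3 over CD4 T for each member with all 5 libraries (black line) and with each library left out (symbols, filled where the edgeR adjusted p is under 0.05). Leaving out CD4 T replicate 2 gave the highest value for every member except Gimap8, and Gimap8 and Gimap5 moved least with the CD4 T libraries.

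The calls thus turned on which CD4 T library was kept. With CD4 T replicate 1 as the only library of its group, 3 members were called higher in ILC3 (Gimap4, Gimap6 and Gimap3) and 0 lower, where 12.5% of all tested genes were called higher and 7.02% lower. With CD4 T replicate 2 alone, 0 were called higher and 1 lower (Gimap7), where 3.65% of all tested genes were called higher and 2.22% lower. In these fits the lone library is assumed to vary like those of the other group.

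All 8 members were higher in CD4 T replicate 2 than in CD4 T replicate 1, by 1.06-fold to 5.15-fold with a median of 2.65-fold. Over all tested genes 48.9% were higher in replicate 2, and the median fold between these libraries, in either direction, was 1.65. Among the ILC3 libraries, the highest exceeded the lowest by 1.11-fold to 1.86-fold across the members, with a median of 1.77-fold over all tested genes. For 5 members every ILC3 library lay between the CD4 T libraries, which held for 5.23% of all tested genes. The members fell along a range in this respect. Gimap7, Gimap4 and Gimap3 differed over 4-fold between the CD4 T libraries, Gimap6 2.97-fold, Gimap9 2.33-fold and Gimap1 1.75-fold, while Gimap5 (1.07-fold) and Gimap8 hardly differed.

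Several marker lists were also higher in CD4 T replicate 2 than in replicate 1. Of 14 ILC3 genes 12 were, and their sum was 1.93 times as high. Of 12 T cell markers 10 were, and their sum, 1.97 times as high, was 892, 1022 and 457 CPM in ILC3 against 1914 and 3770 CPM in CD4 T replicates 1 and 2. The T cell markers differed widely among themselves. The ratio was 4.68 for Cd3g, 3.66 for Cd3e, 1.69 for Cd3d and 1.37 for Cd247, all parts of the CD3 complex, and 3.25 for the adaptor gene Lat and 1.66 for the costimulator gene Cd28. The surface receptor genes Cd5 (54.8 and 78.0 CPM) and Cd6 (36.6 and 56.8 CPM) were also higher in replicate 2. So was the CD8 chain gene Cd8b1 (336 and 432 CPM). Foxp3, the factor of regulatory T cells, was level at 62.9 and 65.6 CPM. Cd4 and Cd8a, unlike Cd8b1, went the other way, Cd4 with a ratio of 0.634 and Cd8a at 245 and 189 CPM. Of these only Cd3g, Cd8a and Foxp3 fall under the rule for named genes. In ILC3 replicates 1 to 3, Cd3g was 361, 469.6 and 160.3 CPM, and Cd6 was the marker with no count in any ILC3 library. Summed epithelial markers were 2.21 times as high in CD4 T replicate 2 as in replicate 1, but low (24.1 CPM in replicate 1 and 53.3 CPM in replicate 2). Those of NK cells and ILC1 were 1.90 times as high in replicate 2 (2362 and 4494 CPM). The ratio was 1.78 for ILC2 (215 and 383 CPM). Of B cell markers 4 were higher and 5 lower in replicate 2, with a ratio of sums of 1.55. Of myeloid markers 4 were higher and 8 lower, while their sum was 1.27 times as high, with Lyz2 at 657 and 1590 CPM in CD4 T replicates 1 and 2. The same ratio was 0.853 for plasmacytoid dendritic cells, 0.712 for endothelial cells and 0.618 for plasma cells. Endothelial cells, which can also express GIMAP genes, had summed markers at 46.9, 38.4 and 44.2 CPM in ILC3 and 34.2 and 24.3 CPM in CD4 T, mostly Pecam1. Emcn was at 0 in every library. Cldn5 was 2.52, 2.49 and 2.86 CPM in ILC3 and 0 in both CD4 T libraries (adjusted p = 0.0397 in edgeR). That call was lost with any 1 library left out. The part of cell makeup in the GIMAP levels was not tested.

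**Figure D3:**
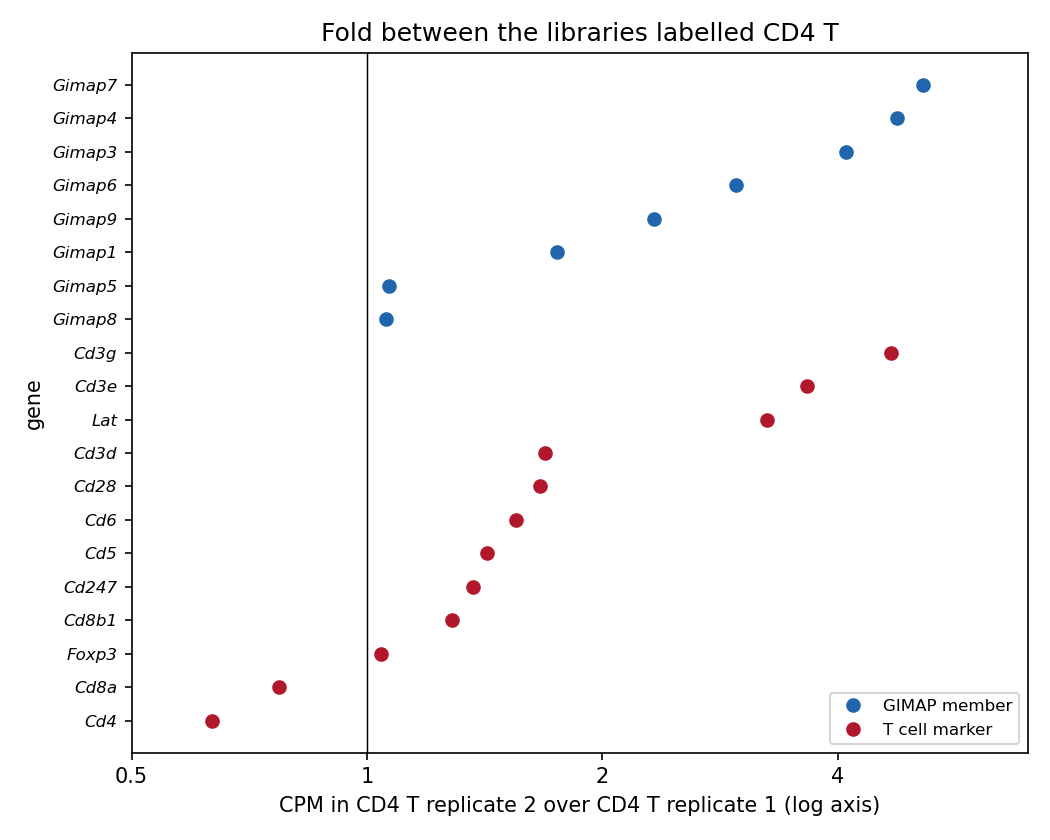
Ratio of CPM in CD4 T replicate 2 over CD4 T replicate 1, on a log axis, for the 8 GIMAP members (blue) and the 12 T cell markers (red), each sorted by size. Gimap7, Gimap4 and Gimap3 stand near Cd3g and Cd3e, and Gimap5 and Gimap8 stand near 1.

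The make-up of the family's counts does not depend on scaling between libraries. Gimap6 took 34.4%, 34.8% and 40.9% of the GIMAP counts in ILC3 against 37.2% and 37.0% in CD4 T, and its shares overlapped between the groups. Gimap4 took 27.7 ± 3.22% in ILC3 (SD, n = 3) against 21.3 ± 6.94% in CD4 T (SD, n = 2), and its values overlapped. Gimap8 took 0.962%, 0.817% and 1.70% in ILC3 against 4.89% and 1.73% in CD4 T, and Gimap7 4.97%, 3.88% and 3.81% against 5.02% and 8.67%. These were the members whose shares did not overlap between the groups, and Gimap8 only by the narrow step between 1.70% and 1.73%. An exact two-sided permutation test of 3 against 2 libraries gave p = 0.2 for each of them, the smallest value it can give here. Gimap5 stood out in CD4 T replicate 1 at 12.4%, against 4.43% in CD4 T replicate 2.

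**Figure D4:**
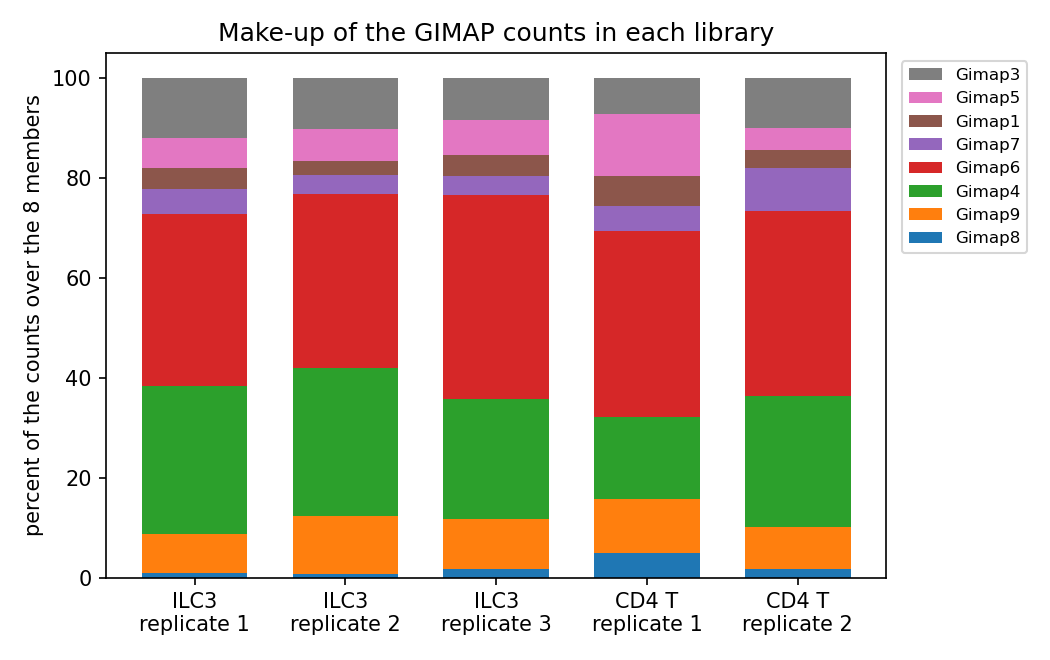
Percent of the counts over the 8 GIMAP genes taken by each member, as a stacked bar per library, with the 3 ILC3 libraries left of the 2 CD4 T libraries. Gimap6 and Gimap4 together make up most of every bar, and Gimap5 and Gimap8 take their largest shares in CD4 T replicate 1.

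Levels of different genes were set side by side per kilobase of exon, as TMM-scaled CPM per kilobase of the merged exons of each gene. In ILC3 the order was Gimap4 (205 ± 34.3), Gimap6 (155 ± 7.77), Gimap9 (96.0 ± 22.2), Gimap3 (53.5 ± 11.6), Gimap5 (45.2 ± 2.65), Gimap7 (45.0 ± 7.84), Gimap1 (33.2 ± 6.49) and Gimap8 (4.18 ± 1.45 CPM per kilobase; SD, n = 3). Gimap3, Gimap5 and Gimap7 differed by less than their spread. In CD4 T the order was Gimap4 (161 ± 149), Gimap6 (144 ± 101), Gimap9 (81.6 ± 46.1), Gimap7 (76.0 ± 72.5), Gimap3 (44.5 ± 38.3), Gimap5 (41.0 ± 1.88), Gimap1 (34.6 ± 13.3) and Gimap8 (8.49 ± 0.33 CPM per kilobase; SD, n = 2). Neighbours in that order differed by less than the larger of their SDs, except that Gimap8 stood below Gimap1. Gimap8 was the lowest in each of the 5 libraries. The order of the top 2 rests on the length taken: with the transcript of the longest coding sequence, Gimap6 averaged 310.4 CPM per kilobase in ILC3 and 289.3 in CD4 T, and was above Gimap4 in every library.

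Of the 12 nearest coding genes around the cluster, 6 on each side, 6 were tested. Beside 6.46% of all tested genes called higher and 7.21% lower, 2 of these 6 were called, both higher in ILC3. Tmem176b and Tmem176a, neighbours on the Gimap3 side that encode membrane proteins known from dendritic cells, were these 2 genes. Tmem176a was 1320, 1241 and 967 CPM in ILC3 against 77.6 and 85.0 CPM in CD4 T (log2 ratio 3.85, SE 0.347, adjusted p = 0.00263 in edgeR). Tmem176b was 2241, 2149 and 1900 CPM in ILC3 against 292 and 218 CPM in CD4 T (3.04, SE 0.336, adjusted p = 0.00479 in edgeR). Tmem176b lies 63.0 kilobases from the cluster and Tmem176a 70.6 kilobases. They overlap on opposite strands, so without a stated strand setting their shared reads cannot be told apart. On the Gimap8 side Zfp775, Repin1, Rarres2 and Lrrc61 were at most 4.87 CPM in any library and not called, with log2 ratios from -1.52 to 0.98. Gm5111, Atp6v0e2, Gm7932, Doxl1 and Doxl2 had no count in any library, and Aoc1 had 1.

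**Figure D5:**
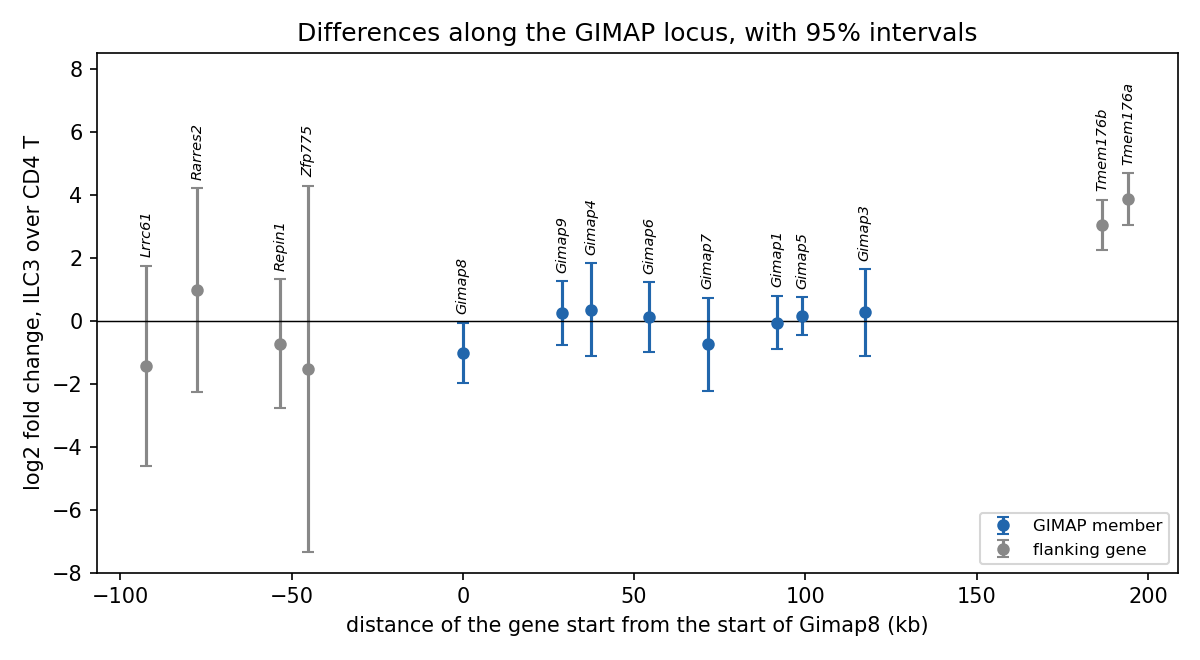
Log2 ratio of ILC3 over CD4 T with its 95% interval for the 8 GIMAP members (blue) and the 6 tested flanking genes (grey), against the distance of each gene's start from that of Gimap8. The intervals of 7 members cover 0, that of Gimap8 ends at -0.06, and Tmem176b and Tmem176a lie at 3.04 and 3.85.

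The promoter windows, from 250 bases before to 50 after each start in RefSeq, were available for all 8 members, with 2 for Gimap8. They were searched on both strands for short motifs, and the matches of 6 are given. TGTGGT, the core bound by RUNX factors, was found in 3 members (Gimap1, Gimap4 and Gimap7) and in 16.8% of all 32851 windows. GGAAGT, an ETS core, was in 4 members (Gimap1, Gimap5, Gimap6 and Gimap9) and in 23.8% of all windows. CTTTGA, bound by TCF factors, was in Gimap4 and Gimap7 (16.0% of windows), TGGGAA, shared by Ikaros and RBPJ, in Gimap3 (25.6%), the GC box GGGCGG in Gimap7 and Gimap9 (35.7%) and the TATA box TATAAA in Gimap6 (13.6%). The windows of Gimap4 and Gimap5 are printed as examples of a member with a wide and one with a narrow gap between the CD4 T libraries, with RUNX and ETS cores in capitals, in build GRCm38.p6; a match is a description of the letters only.
Gimap4 promoter (chr6:48684328-48684627, plus strand): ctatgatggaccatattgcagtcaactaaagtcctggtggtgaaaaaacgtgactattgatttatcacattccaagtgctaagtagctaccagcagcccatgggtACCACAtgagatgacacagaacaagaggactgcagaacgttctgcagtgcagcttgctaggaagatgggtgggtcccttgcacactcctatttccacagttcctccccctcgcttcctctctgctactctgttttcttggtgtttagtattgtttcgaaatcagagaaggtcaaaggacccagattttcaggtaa
Gimap5 promoter (chr6:48745947-48746246, plus strand): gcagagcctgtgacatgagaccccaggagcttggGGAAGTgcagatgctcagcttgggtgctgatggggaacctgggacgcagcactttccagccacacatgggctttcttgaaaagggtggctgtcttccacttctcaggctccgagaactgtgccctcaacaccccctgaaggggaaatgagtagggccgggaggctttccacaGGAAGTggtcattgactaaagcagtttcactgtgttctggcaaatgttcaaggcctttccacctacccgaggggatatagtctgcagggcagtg

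Genes of the pathways around GIMAP proteins were read from the same fit, in which 6.46% of all tested genes were called higher and 7.21% lower. With each library left out, the shares ran from 2.17% to 12.5% of all tested genes higher and from 2.22% to 7.02% lower. Of 10 genes whose products bind or are linked to GIMAP proteins, mostly of the BCL2 family and the autophagy adaptors, 2 were lower in ILC3, 0 higher and 8 not called, with a median log2 ratio of 0.00. Mcl1, a survival factor, was 80.7, 86.9 and 114.8 CPM in ILC3 against 440.5 and 203 CPM in CD4 T (log2 -1.77, adjusted p = 0.0336 in edgeR). Bcl2l11, which encodes the death factor BIM, was 32.0, 49.6 and 59.9 CPM in ILC3 against 137 and 115 CPM in CD4 T (log2 -1.42, adjusted p = 0.0409 in edgeR). With CD4 T replicate 1 or any 1 ILC3 library left out, 0 of the 10 were called lower, and with CD4 T replicate 2 left out 2 were called higher and 2 lower, beside 12.5% and 7.02% of all tested genes.

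Genes of naive and recirculating lymphocytes, the state in which GIMAP transcripts are known to be high, were lower in ILC3 in 6 of 14, beside 7.21% of all tested genes, and higher in 1, beside 6.46%. Klf2, which drives egress receptors, was 14.1, 6.52 and 7.12 CPM in ILC3 against 164 and 97.9 CPM in CD4 T (log2 -3.82, adjusted p = 0.00634 in edgeR). Txnip, a brake on glucose uptake, was lower too (log2 -3.18, adjusted p = 0.00567 in edgeR), and the receptor gene Il6ra was also lower (adjusted p = 0.0096 in edgeR). Tcf7, a factor of T cells and ILC progenitors that is also among the ILC3 markers, was the one higher (log2 2.86, adjusted p = 0.047 in edgeR), a call lost with any 1 ILC3 library left out. Without each library in turn, 4 or 5 were lower and 0 to 2 higher.

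The interferon-inducible GTPases, another GTPase family of immune cells, had 2 of 16 members higher and 3 lower, beside 6.46% and 7.21% of all tested genes, with a median log2 ratio of -0.01. Igtp was 243, 242 and 213 CPM in ILC3 against 38.4 and 42.9 CPM in CD4 T (log2 2.52, adjusted p = 0.00503 in edgeR), and Tgtp2, a gene with a near-identical copy, was also higher (log2 3.88, adjusted p = 0.0289 in edgeR). Gbp3 was lower (log2 -3.65, adjusted p = 0.0117 in edgeR), as was Mx1 (adjusted p = 0.0333 in edgeR). Mx1, annotated here as a transcribed pseudogene, had no count in ILC3 and was 3.13 and 9.14 CPM in CD4 T. Without each library in turn, 1 to 3 were higher and 0 or 1 lower.

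Of 14 lymphoid transcription factors, 1 was higher in ILC3, close to the 6.46% of all tested genes, and 3 were lower, beside 7.21% of all tested genes. Ikzf3, which encodes Aiolos, was higher (log2 2.15, adjusted p = 0.0194 in edgeR). Ikzf1, which encodes Ikaros, was lower (log2 -2.05, adjusted p = 0.0186 in edgeR), as were the receptor gene Notch1 (log2 -2.65, adjusted p = 0.0255 in edgeR) and the T lineage factor Bcl11b (log2 -2.77, adjusted p = 0.0307 in edgeR). Without each library in turn, 0 to 4 were lower and 0 or 1 higher.

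The genes outside the family whose profile over the 5 libraries was most like the members' mean profile were found by the root mean square difference of centred log2 CPM. These were Hmgb2, a chromatin protein gene (0.0328), the mitochondrial ribosome gene Mrpl22 (0.0675), Crbn (0.0769), the pseudogene Gm7984 (0.0948) and Lamtor3 (0.102). Hmgb2, for example, was 61.5, 61.5 and 60.6 CPM in ILC3 against 37.8 and 87.5 CPM in CD4 T. Among the members, Gimap6 was nearest to the mean profile at 0.152 and Gimap8 farthest at 0.741.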

How the data were processed

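The authors deposited raw counts per NCBI gene identifier, 1 column per library. The labels' protocols name a SMARTer low-input kit, which amplifies cDNA. The submitters' processing notes name CASAVA 1.8.2, STAR 2.3.0 and mm10; which tool counted the reads, on which annotation and strand, is not given in the sources used here. The counts entered edgeR 4.0.16 under R 4.3.3 (filterByExpr, TMM, glmQLFit, glmQLFTest, 3 residual degrees of freedom, no covariate). P-values were Benjamini-Hochberg adjusted over 12747 genes and calls made under 0.05. The standard error is the log2 fold change divided by the square root of F, and 95% intervals use the t distribution. The fit was also run on simulated counts with the same dispersion for every gene. That run does not show how small a difference could be called in the members. Alternatives included DESeq2 1.42.0 and limma 3.58.1. Symbols, positions and promoters came from RefSeq GRCm38.p6 (25275 of 27179 identifiers matched), lengths and coding sequences from GENCODE M21; protein sequences were not used here. A pseudocount of 0.5 CPM was used for log2 profiles.

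The members and gene lists were chosen with earlier results of these data known. Named genes are all members, the flanking genes, of each pathway list at most 4 called genes, taken by p (2 by level where none is called), of each list of other cells at most 2 and the highest in each group, and the 5 genes with the most alike profile; some of them are not reported here. Reads were amplified with no molecular identifiers named, so they are not independent molecules.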

Additional observations from a re-analysis of the deposited data

How the results depend on the processing

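Log2 fold changes below are ILC3 over CD4 T. Over the 8 members and 13 alternatives, 83 of 104 values kept their sign and their side of the threshold, 4 passed it and 17 changed sign. No member was called with the other size factors, filters and tests run. With library size alone, where the median of all tested genes was -0.59 in place of -0.10, Gimap9 was -0.294, Gimap4 -0.127, Gimap6 -0.392, Gimap5 -0.365 and Gimap3 -0.194. With library size without receptor segment genes (median -0.48), Gimap9 was -0.134, Gimap6 -0.253, Gimap5 -0.25 and Gimap3 -0.0727. In limma-voom Gimap1 was 0.0228. Without each library in turn, members called higher ranged from 0 to 3 and lower from 0 to 1; the log2 value ranged from -0.245 to 0.983 for Gimap9, -0.368 to 1.89 for Gimap4, -0.474 to 1.10 for Gimap6, -1.49 to 0.88 for Gimap7, -0.401 to 0.412 for Gimap1, -0.413 to 1.63 for Gimap3, -0.189 to 1.63 for Rarres2 and -2.47 to 2.93 for Zfp775. Over all genes, 824 were higher and 919 lower; leaving out libraries gave 269 to 1712 higher and 306 to 960 lower, library size alone 384 and 1491, and library size without receptor segment genes 1499 lower. No filter gave 1250 higher, the DESeq2 Wald test 1945 and 1962, and limma-voom 1317 and 1402. Of the called genes, 47.3% were higher in ILC3, against 20.5% with library size alone, 28.9% without receptor segment genes, 62.1% without CD4 T replicate 1 and 64.1% without CD4 T replicate 2. The cause of these shifts was not tested. With the length of the transcript with the longest coding sequence, an alternative chosen after seeing the data, Gimap6 was 310.4 CPM per kilobase in ILC3 and 289.3 in CD4 T, and Gimap8 10.01 in CD4 T.

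Replicate numbers 1 and 2 occur in both groups, but the labels do not say that they mark a shared mouse. The numbers are therefore not taken to pair the libraries. Deviations from the group means of same-numbered libraries correlated at -0.039 and -0.0415. The deviations of the 2 CD4 T libraries mirror each other, so both values rest on the same difference and cannot settle whether the libraries are paired. With the replicate block, 215 genes were higher and 305 lower with 1 residual degree of freedom, no GIMAP member was called, and the Tmem176b value of 3.12 had an edgeR adjusted p of 0.0576.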

Other observations

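Between Zfp775 and Gimap8 lies AI854703, a transcribed pseudogene on chromosome 6 (48628167 to 48633688), chosen after its values were seen and outside the rule for flanking genes because it is not annotated as coding. It was 14.7, 14.6 and 12.7 CPM in ILC3 against 1.86 and 3.14 CPM in CD4 T, a log2 ratio of 2.49 (SE 0.596, adjusted p = 0.0414 in edgeR). All ILC3 libraries were above both CD4 T libraries. The nearest member, Gimap8, had a log2 ratio of -1.02 that did not pass the test.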
